A study of Mus musculus with 4 samples.

Results

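Leukocyte lineage genes are 46 mouse genes whose products mark or run blood cells: the T-cell and B-cell receptor chains, leukocyte integrins, myeloid receptors, signalling proteins of the cytoskeleton and the transcription factors that set lymphoid and myeloid fates. They were taken from a list of names, and each was read in a window from 1000 bp upstream to 2000 bp downstream of its first transcription start site (TSS) in the mouse genome build mm10. Of the 46, 24 held at least 1 qualified CpG site, or 52.2%. All 46 are annotated as protein coding; 66.4% of protein coding genes held one, and 22148 of all 55413 annotated genes did. A qualified site is a CpG cytosine on 1 strand with at least 20 reads in all 4 tumors, and a gene's methylation level is the mean over its qualified sites of the percentage of reads that kept the cytosine. The assay was reduced representation bisulfite sequencing (RRBS), which cuts DNA at CCGG, reads the ends of the short fragments and so samples mainly CpG-dense DNA.

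The tumors came from 2 lines of mouse lung adenocarcinoma. 344SQP is the parental line, from a mouse model that carries the p53 allele R172HΔg, and 344SQR was derived from it with acquired resistance to antibodies against the checkpoint receptor PD1. The hosts were female 129Sv/Ev mice, syngeneic to the lines and 12 to 16 weeks old. Each tumor grew in the leg, from cells of either line given subcutaneously in 100 μL. All 4 tumors were treated with anti-PD1 at 10 mg/kg into the peritoneum, from day 4 for 4 doses, and were collected 24 h after the last dose. There were 2 tumors per line, named P1 and P2 for 344SQP replicates 1 and 2, and R1 and R2 for 344SQR replicates 1 and 2. Tumors given control IgG were not analysed here.

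Genes of this kind are typically kept active in blood cells by lineage factors bound at their promoters and enhancers, and the CpG sites around those elements are often unmethylated there. In epithelial cells, which typically do not use them, the same sites are often methylated. An exception is a CpG island, where most promoters stay unmethylated in any tissue. A lung tumor holds both kinds of cell, since T cells, macrophages and neutrophils enter it. In DNA from a whole tumor, a different share of leukocytes and a different methylation within the cells cannot be told apart.

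Depth differed between the tumors. P1 held 116794455 CpG calls, P2 138331886, R1 160548303 and R2 174689402. At the sites of the leukocyte genes the median coverage was 91 reads in P1, 102 in P2, 112 in R1 and 125 in R2. At the minimum of 20 reads a single read is worth 5.0 percentage points, so sites near the minimum were imprecise. Both tumors of 344SQR were deeper than both of 344SQP, and in each line the tumor numbered 2 was the deeper. Breadth differed as well. CpG sites listed with at least 1 read numbered 2770733 in P1, 2695851 in P2, 3772295 in R1 and 6377285 in R2. R2 thus covered far more sites than the other tumors. What part this has in the levels of R2 was not tested.

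Windows with data were on the whole denser in CpG, with exceptions on both sides. The median window with a qualified site held 55 CpGs and 6 CCGG motifs, against 32 CpGs and 2 CCGG motifs for the 22 without. Itgal had data with 32 CpGs, whereas Cd79a had none with 61. The genes without a site included many defining markers: Ptprc (CD45), Cd3d, Cd3g, Cd247 and Cd4 of T cells, Cd79a and Btk of B cells, Itgam, Itgax, Csf1r, Tyrobp and Fcer1g of myeloid cells, and Foxp3 of regulatory T cells. Itgb2, Selplg, Cd53, Laptm5, Arhgdib, Lck, Lcp2, Il2rb and Il2rg had none either, so neither cytokine receptor subunit on the list was measured. Lck, the kinase that starts T-cell receptor signalling, gained 1 site at a minimum of 10 reads. The label of the list could therefore be checked only on the remaining genes, and none of the 4 libraries was made from sorted leukocytes. The 24 measured genes held 381 qualified sites out of 1081201 in the genome, and 289 of the 381 lay in Ikzf1, Gata3, Ikzf3, Coro1a and Tbx21. Of the 24 genes, 13 had at least 5 sites and the other 11 rested on 1 to 4.

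Leukocyte genes were on average more methylated than all genes in each of the 4 tumors. Their mean level was 43.3% in P1, 52.8% in P2, 41.2% in R1 and 45.9% in R2, beside 27.9%, 29.3%, 26.4% and 25.7% over all genes with a site. Their medians were 37.4%, 54.3%, 31.2% and 40.4%, where the medians of all genes lay between 5.61% and 7.84%. By line, the mean was 48.0% ± 6.73 (SD, n = 2) in 344SQP and 43.5% ± 3.32 (SD, n = 2) in 344SQR, a difference of -4.52 percentage points. The values of the lines overlapped, since R2 lay above P1, and without P2 the difference was 0.246 points while without P1 it was -10.0. With 2 tumors against 2, an exact permutation test (two-sided) cannot go below p = 0.33, so this difference was given no test.

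Per gene, the reads of the lines were compared by a likelihood ratio test at each site, combined over the window by Stouffer's method and adjusted over all 22148 genes at a false discovery rate (FDR) of 0.05. By this test 10 of the 24 leukocyte genes were called lower in 344SQR, where 34.1% of all genes were, and 4 were called higher, where 8.84% were. In either direction that made 14 of the 24, beside 42.9% of all genes. The genes called lower were Spi1, Cd48, Ikzf1, Inpp5d, Fgr, Cd37, Rac2, Vav1, Cd8b1 and Cd8a, and those called higher were Ikzf3, Dock2, Itgal and Runx3. Both tumors of 344SQR lay below both of 344SQP in 7 of the 24 (34.9% of all genes), and above them in 1, Runx3 (6.83% of all genes). Calls made with 1 tumor left out, given below, cover counting error only, since a line then keeps 1 tumor. The test itself counts reads and ignores how far tumors of a line lie apart. Under edgeR's quasi-likelihood test, which includes that spread, 0 leukocyte genes were called (0.00904% of genes, which is 2 of 22135), and 0 had an unadjusted p under 0.05, which 9.41% of genes had. Without P1 the test called 15 leukocyte genes lower and 0 higher (33% and 7.37% of all genes), and without P2 7 lower and 9 higher (26.1% and 12.9%). Without R1 it called 8 lower and 8 higher (35.2% and 11.6% of all genes), and without R2 13 lower and 3 higher (31.7% and 4.05%). Of the 14 called genes, Vav1 was the 1 that was called in the same direction without each tumor in turn.

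**Figure D1:**
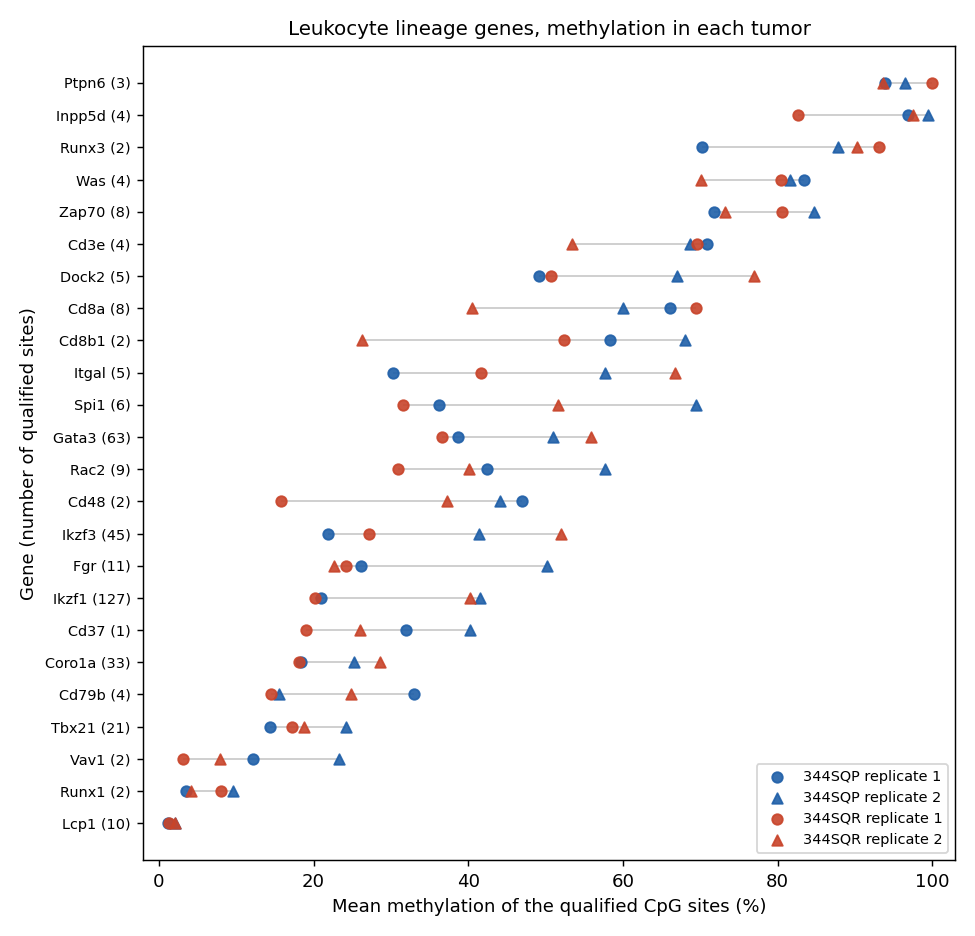
Mean methylation (%) of the qualified CpG sites of each of the 24 leukocyte lineage genes, with the number of sites in parentheses; circles are replicate 1 and triangles replicate 2, blue is 344SQP and red 344SQR. Levels run from Lcp1, at 1.66% over the 4 tumors, to Ptpn6, at 96.0%, and in Ikzf1, Ikzf3, Gata3 and Itgal both triangles lie to the right of both circles.

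Transcription factors held most of the sites, 266 over 7 of the 8 on the list. Ikzf1, which encodes the zinc finger factor Ikaros needed for lymphocyte development, averaged 21.0% in P1, 41.5% in P2, 20.2% in R1 and 40.2% in R2 over 127 sites read 21 to 289 times. The lines had nearly the same level, and the tumors within each line lay about 20 points apart. The tumor numbered 2 was the higher at 120 of the 127 sites in 344SQP and at 118 in 344SQR. Ikzf1 was called lower in 344SQR by -1.03 points (FDR 1.53e-09), a difference far inside the spread between tumors of a line. It was 9.29 points without P2 and 8.97 without R1, against -11.3 without P1 and -11.0 without R2. The site of Ikzf1 with the widest gap between lines, 371 bp upstream of the TSS on chromosome 11 at 11685554, held 29.6%, 50.0%, 11.8% and 16.3%, at 98 to 166 reads. Here both 344SQR tumors were below both 344SQP tumors, unlike the gene's mean.

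Ikzf3, the gene of the related factor Aiolos of B-cell differentiation, also had P2 above P1 and R2 above R1, with 21.8% in P1, 41.5% in P2, 27.1% in R1 and 52.0% in R2 over 45 sites. It was called higher in 344SQR by 7.90 points (FDR 1.07e-24), with the lines overlapping. Without P1 the difference turned to -1.92 points and without R2 to -4.52, and it was 17.7 without P2 and 20.3 without R1. One site 137 bp upstream, at chromosome 11 position 98545937, went the other way from the gene: 26.5% and 51.9% in P1 and P2, 8.22% and 8.42% in R1 and R2, at 68 to 95 reads.

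Gata3 encodes the factor of T helper 2 cells and is also used outside blood. Its 63 sites averaged 38.7% in P1, 50.9% in P2, 36.6% in R1 and 55.8% in R2, and the difference of 1.41 points between lines was not called (FDR 0.336). This mean joined 2 very different stretches. The 21 upstream sites held 3.67%, 3.56%, 2.25% and 4.57%, whereas the 37 sites from beyond 500 to 2000 bp downstream held 59.8%, 77.6%, 56.8% and 85.4%. The gap between tumors of a line thus lay downstream of the TSS. The upstream stretch was on average nearly unmethylated in all 4 tumors, with single sites up to 16.3%. With any 1 tumor left out the Gata3 difference was called, at -4.72 points without P1, 7.55 without P2, 11.05 without R1 and -8.22 without R2.

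Spi1, which encodes PU.1, the master factor of myeloid and B cells, held 36.2% in P1, 69.4% in P2, 31.6% in R1 and 51.6% in R2 over 6 sites. It was called lower by -11.2 points (FDR 1.40e-15), although the range within 344SQP alone was 33.2 points. Without P2 the difference was 5.37 points and without R1 -1.25, neither of them called, and it was -27.9 without P1 and -21.2 without R2. In a window that ended 500 bp downstream, Spi1 was at -6.45 points and was not called. Neighbouring intron sites disagreed: the one 1085 bp downstream held 27.1%, 50.6%, 10.2% and 8.55%, and the one 1100 bp downstream 47.9%, 91.0%, 47.6% and 88.6%. At the first, both 344SQR tumors were below both of 344SQP, and at the second P1 lay close to R1 and P2 close to R2.

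Tbx21 encodes T-bet, the factor of T helper 1 cells and cytotoxic lymphocytes. Over 21 sites it held 14.4% in P1, 24.2% in P2, 17.2% in R1 and 18.7% in R2, and was not called (FDR 0.292); its mean difference of -1.36 points and its test statistic had opposite signs. The difference was 3.53 points without P2, -6.26 without P1 and -0.610 without R1. It was called with windows ending 500 bp downstream, at 3.87, and at a minimum of 50 reads, at 3.16. One intron site, at chromosome 11 position 97114323, held 18.2% in P1, 78.1% in P2, 4.35% in R1 and 0% in R2 on 22 to 32 reads. The 95% Wilson interval, which covers counting error only, ran from 61.2% to 89.0% in P2 and from 0% to 12.5% in R2. P2 thus stood apart from the other tumors, at a depth near the minimum.

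Runx1 and Runx3 encode RUNX factors, the former needed to form blood stem cells and the latter used by CD8 T cells. In the main window each had 2 sites. Runx1 was low, at 3.54%, 9.65%, 8% and 4.21%, and was not called (FDR 0.665); its difference of -0.489 points was 2.57 without P2 and 1.41 without R2. Runx3 was high, at 70.2% in P1, 87.8% in P2, 93.1% in R1 and 90.2% in R2, and was called higher by 12.7 points (FDR 0.00546). Without P1 the Runx3 difference was 3.89 points and was not called, and without P2 it was 21.5. With the windows of all its TSS joined, Runx3 had 146 sites at 14.8%, 23.6%, 11.2% and 16.0%, and was called lower by -5.64 points. Its direction therefore differed between the window of the first TSS and the joined windows, which include that first one. Runx1, with 74 sites over all TSS, held 12.6%, 5.62%, 12.2% and 3.78%, and was called lower by -1.12 points; there P2 and R2 were the low tumors.

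**Figure D2:**
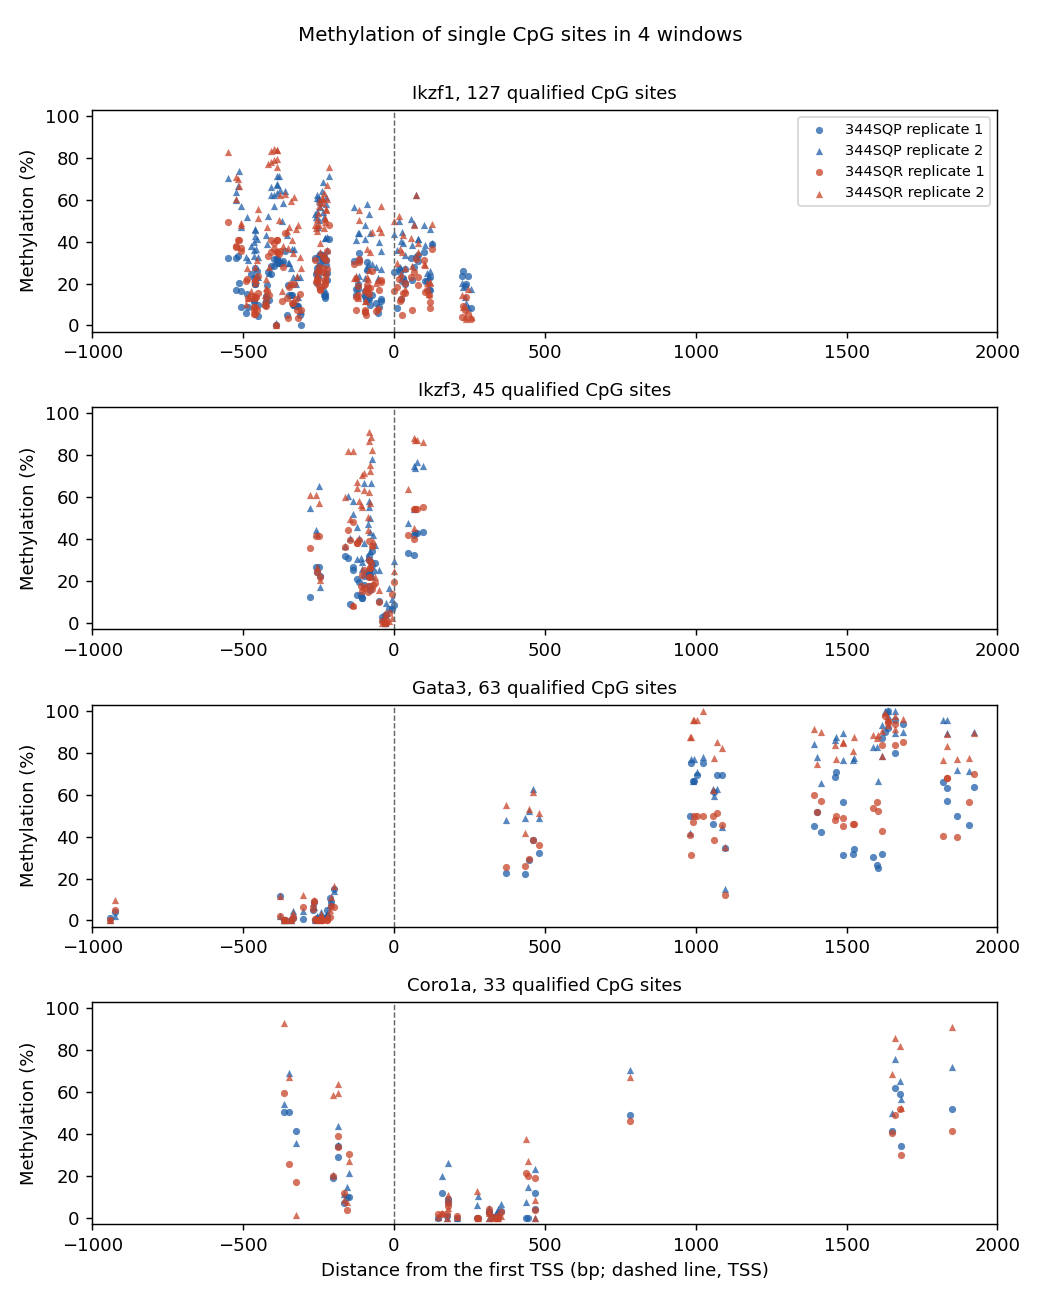
Methylation (%) of each qualified CpG site in the windows of Ikzf1, Ikzf3, Gata3 and Coro1a against its distance (bp) from the first TSS, which the dashed line marks; each point is 1 site in 1 tumor, circles for replicate 1 and triangles for replicate 2, blue for 344SQP and red for 344SQR. Triangles lie above circles over most of the Ikzf1 and Ikzf3 windows. The 21 upstream sites of Gata3 average 3.67% in P1, 3.56% in P2, 2.25% in R1 and 4.57% in R2, and single sites reach 16.3%.

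Promoter sequence of 5 of the genes is printed to show how unlike their CpG content was. Each stretch is the 250 bases ahead of the RefSeq start of the gene (RefSeq, GRCm38.p6, the same assembly as mm10), 5′ to 3′ on the gene's strand, and capitals mark the CpGs with a qualified site. That of Ikzf1, chr11:11685675-11685924 on the plus strand, holds 44 CpGs, 26 of them qualified, and averaged 21.6% in P1, 42.5% in P2, 20.8% in R1 and 41.1% in R2. That of Coro1a, chr7:126704817-126705066 on the minus strand, holds 13 CpGs, 5 of them qualified, and averaged 18.3%, 24.4%, 23.2% and 37.6%. That of Dock2, chr11:34783906-34784155 on the minus strand, ends at a RefSeq start 13 bp upstream of the first annotated TSS and holds 4 CpGs, the 1 qualified at 36.5%, 84.8%, 51.1% and 79.7%. That of Lcp1, chr14:75130873-75131122 on the plus strand, ends at a RefSeq start 431 bp upstream of the first annotated TSS, holds 16 CpGs, 7 of them qualified, and averaged 0.304%, 2.99%, 0.633% and 2.26%. That of Zap70, chr1:36761548-36761797 on the plus strand, holds 6 CpGs, 2 of them qualified, and averaged 77.5%, 70.5%, 87.1% and 81.5%. These Zap70 sites were unlike each other, at 86.3%, 96.7%, 100% and 100% for the one 88 bp upstream and 68.6%, 44.3%, 74.2% and 62.9% for the one 70 bp upstream. The qualified sites of Lcp1 averaged under 3% in each tumor, while in the dense stretch of Ikzf1 and at the Dock2 site the tumors of a line lay furthest apart.
Ikzf1: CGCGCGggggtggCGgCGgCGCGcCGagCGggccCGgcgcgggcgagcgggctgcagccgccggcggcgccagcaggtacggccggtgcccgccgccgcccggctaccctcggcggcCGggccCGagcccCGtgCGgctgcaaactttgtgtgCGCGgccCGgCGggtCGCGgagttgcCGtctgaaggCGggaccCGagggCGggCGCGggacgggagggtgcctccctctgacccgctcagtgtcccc
Coro1a: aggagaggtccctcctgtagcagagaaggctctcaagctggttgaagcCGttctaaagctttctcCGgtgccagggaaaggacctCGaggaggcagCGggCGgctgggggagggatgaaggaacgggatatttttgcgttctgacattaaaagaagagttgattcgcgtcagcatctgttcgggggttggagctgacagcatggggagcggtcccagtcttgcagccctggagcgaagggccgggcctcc
Dock2: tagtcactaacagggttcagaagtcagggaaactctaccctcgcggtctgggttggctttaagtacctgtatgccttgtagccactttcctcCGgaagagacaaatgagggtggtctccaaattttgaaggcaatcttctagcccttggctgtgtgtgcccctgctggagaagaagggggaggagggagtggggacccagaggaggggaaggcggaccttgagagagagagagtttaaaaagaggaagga
Lcp1: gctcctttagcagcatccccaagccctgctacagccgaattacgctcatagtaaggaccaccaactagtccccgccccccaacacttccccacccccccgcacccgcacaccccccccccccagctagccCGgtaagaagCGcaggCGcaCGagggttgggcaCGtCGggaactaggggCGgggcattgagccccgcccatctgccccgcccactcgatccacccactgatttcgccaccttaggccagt
Zap70: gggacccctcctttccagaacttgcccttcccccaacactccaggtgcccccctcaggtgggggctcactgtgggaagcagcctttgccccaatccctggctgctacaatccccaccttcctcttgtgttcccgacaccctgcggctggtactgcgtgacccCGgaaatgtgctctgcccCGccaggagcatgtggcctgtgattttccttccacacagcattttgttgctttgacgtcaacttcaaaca

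The T-cell receptor genes with data were Cd3e and the co-receptor chains Cd8a and Cd8b1, all 3 lowest in R2. Cd8a and Cd8b1 encode the chains with which cytotoxic T cells bind MHC class I. Cd8a held 66.1% in P1, 60% in P2, 69.5% in R1 and 40.5% in R2 over 8 sites in coding sequence and an intron. R2 stood alone as the low tumor. Cd8b1 showed the same on 2 intron sites, with 58.3%, 68.0%, 52.4% and 26.3%. Both were called lower in 344SQR, Cd8a by -8.03 points (FDR 2.83e-08) and Cd8b1 by -23.8 (FDR 7.27e-12). Both calls rested on R2. Without R2 the Cd8a difference was 6.43 points and the Cd8b1 difference -10.7, the latter not called, while without R1 they were -22.5 and -36.9; without P1 Cd8a was at -5.00. Cd3e, a signalling chain of the receptor, held 70.8%, 68.7%, 69.5% and 53.4% on 4 sites and was not called (FDR 0.0547), R2 again being the lowest. Without R1 Cd3e was called, at -16.3 points, as it was with windows ending 500 bp downstream, at -14.4.

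Zap70 encodes the kinase that docks on the phosphorylated receptor chains. It held 71.8% in P1, 84.7% in P2, 80.6% in R1 and 73.2% in R2 over 8 sites read 21 to 121 times, and was not called (FDR 0.285). Its difference of -1.37 points was called at -3.99 without P1, 5.09 without P2 and -5.03 without R1, and was 2.29 without R2; at minimums of 10 and 50 reads it was 0.639 and 3.02. Lck had no qualified site at its first TSS; the 1 site it gained there at a minimum of 10 reads held 78.6%, 93.8%, 100% and 68%. Its window over all TSS held 10 sites at 1.83%, 5.29%, 1.52% and 1.84%, so its level differed between promoters. Of the B-cell receptor genes, the signalling chain Cd79b alone was measured, at 33.0%, 15.5%, 14.5% and 24.9% on 4 intron sites, and was not called (FDR 0.171). P1 was its highest tumor, and without R1 its difference of -4.56 points turned to 0.657. Cd79b was called lower, at -13.3, without P2 and at -9.78 without R2, at -12.5 with a minimum of 10 reads and at -10.2 with both strands of a CpG merged.

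Among the surface proteins of all leukocytes, Itgal, Cd48 and Cd37 had sites. Itgal encodes the alpha chain of the integrin with which leukocytes grip ICAM on other cells. It held 30.2% in P1, 57.7% in P2, 41.7% in R1 and 66.7% in R2 over 5 sites read 32 to 151 times. P2 was above P1 and R2 above R1 at all 5 sites. Itgal was called higher by 10.2 points (FDR 0.000255), yet without P1 the difference was -3.53 and without R2 -2.27, against 24.0 without P2 and 22.7 without R1. At a minimum of 50 reads it was 5.74 and over all TSS 4.61, neither of them called. Cd48, a ligand of natural killer cell receptors, held 47.0%, 44.1%, 15.8% and 37.3% on 2 sites and was called lower by -19.0 points (FDR 6.69e-08). Without R1 the difference was -8.25 and was not called, and without R2 it was -29.7. The sites of Cd48 disagreed: the one 7 bp upstream held 50%, 76.3%, 26.6% and 71.2%, with R1 lowest, and the one 28 bp downstream held 44%, 11.9%, 5% and 3.39%, where P1 alone was high. Cd37, a tetraspanin of mature B cells, rested on 1 site at 32.0%, 40.2%, 19.0% and 26.1%, and was called lower by -13.5 points (FDR 0.00743). Without P2 it was at -9.45 and without R1 at -10.0, and was called in neither case.

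Of the 6 genes for myeloid receptors, adaptors and a kinase, Fgr alone had data, and it encodes a Src family kinase of neutrophils and macrophages. Its 11 intron sites, read 23 to 162 times, averaged 26.2% in P1, 50.2% in P2, 24.2% in R1 and 22.7% in R2. P1, R1 and R2 were alike and P2 stood well above them. Fgr was called lower in 344SQR by -14.8 points (FDR 3.80e-18) with both of its tumors below both of 344SQP, but without P2 the difference was -2.75 and was not called, and without P1 it was -26.8. At its most divergent site, chromosome 4 position 132975227, the level was 42.5%, 37.9%, 16.1% and 11.7% at 87 to 161 reads, and there P1 and P2 were close.

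Of the 9 genes for the cytoskeleton, small GTPases and phosphatases, 8 were measured. Rac2 and Vav1 form a pair, a small GTPase that drives the oxidative burst of neutrophils and an exchange factor that activates Rac proteins in blood cells. Rac2 held 42.4% in P1, 57.7% in P2, 30.9% in R1 and 40.1% in R2 over 9 intron sites read 26 to 280 times, and was called lower by -14.5 points (FDR 1.48e-12). Without P2 the Rac2 difference was -6.84 and was not called, and without P1 it was -22.2. Vav1 held 12.2%, 23.3%, 3.06% and 7.86% on 2 sites just upstream of the TSS, and was called lower by -12.3 points (FDR 2.98e-09). In both genes the 344SQR tumors lay below the 344SQP tumors. The Vav1 call held without each tumor in turn, but its size did not: it was -31.7 without P1, when more sites qualified, and -6.71 without P2.

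Dock2 encodes another exchange factor for Rac, needed for lymphocyte migration. It held 49.1% in P1, 66.99% in P2, 50.8% in R1 and 76.9% in R2 over 5 sites read 45 to 125 times, and was called higher by 5.79 points (FDR 0.0109). Here again P1 and R1 were the low tumors. Without P1 the difference was -3.14 and without R2 -7.31, against 14.7 without P2 and 18.9 without R1. Over all its TSS, the first included, Dock2 had 9 sites at 68.7%, 78.7%, 65.2% and 68.4% and was called lower by -6.91 points. Its direction thus changed with the window read, like that of Runx3, and also with the tumor left out.

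Inpp5d and Ptpn6 encode phosphatases that damp signals from antigen and cytokine receptors, and both were almost fully methylated in the window of the first TSS. Inpp5d held 96.9%, 99.5%, 82.6% and 97.5% on 4 coding sites and was called lower by -8.10 points (FDR 1.90e-06). R1 alone was low: without R1 the difference was -0.631 and was not called, and without R2 it was -15.6. Ptpn6 held 93.9%, 96.4%, 100% and 93.6% on 3 intron sites and was not called (FDR 0.990), though without R2 it was called higher by 4.82 points and without R1 its difference was -1.55. Over all its TSS Ptpn6 had 7 sites at 64.3%, 86.9%, 67.7% and 84.3%, lower in P1 and R1 than in P2 and R2. Was, the gene of the actin regulator mutated in Wiskott-Aldrich syndrome, lies on the X chromosome and held 83.3%, 81.6%, 80.4% and 70.1% on 4 sites. It was not called (FDR 0.0689), although both 344SQR tumors were below both of 344SQP, and it was called at -12.4 points without R1 and -8.10 without P2.

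The actin-binding proteins coronin and plastin of leukocytes are encoded by Coro1a and Lcp1. Coro1a held 18.4% in P1, 25.2% in P2, 18.1% in R1 and 28.6% in R2 over 33 sites read 47 to 192 times, and was not called (FDR 0.521); its mean difference and its test statistic had opposite signs. Its 18 sites within 500 bp downstream of the TSS held 3.13%, 7.53%, 5.33% and 6.06%, and its 6 sites further down 49.6%, 65.2%, 43.2% and 74.6%. The tumors thus lay further apart in the flanks than at the start of the gene. The difference of 1.56 points was -1.86 without P1, 4.98 without P2, 6.82 without R1 and -3.70 without R2. At a minimum of 50 reads Coro1a was called lower by its test statistic, although its mean difference was 0.323. Lcp1 had the lowest level of the 24 genes in the window of the first TSS, at 1.19%, 2.09%, 1.31% and 2.06% on 10 upstream sites read 42 to 106 times (FDR 0.703), and its difference of 0.0408 points was -0.411 without P1 and -0.332 without R2. Over all its TSS Lcp1 held 20.1%, 21.4%, 19.3% and 19.8% on 13 sites, a difference of -1.20 points.

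Tumors of a line lay well apart in many of these genes. The median absolute difference between P1 and P2 was 10.5 points over the 24 genes and that between R1 and R2 also 10.5, beside 1.04 and 0.983 over all genes. The other lists of blood genes ranged widely, with 18.5 points within 344SQP and 9.39 within 344SQR for other pan-leukocyte genes, 8.51 and 7.41 for other genes of T and natural killer cells, 4.07 and 7.28 for other myeloid genes, and 1.80 and 9.02 for other B-cell genes. P2 was above P1 in 19 of the 24 (56.0% of all genes) and R2 above R1 in 15 (50.3% of all genes). In 2 of the 24 the difference between lines was larger than the larger difference within a line, namely Vav1 and Cd37, where 28.1% of all genes met this. At a minimum of 10 reads Vav1 had 9 sites at 14.6%, 30.6%, 5.61% and 20.3%, so that the lines overlapped and the difference of -9.68 points was smaller than those within the lines. Most genes in the genome lie near 0% or 100% and cannot differ much, so the comparison was repeated, as an addition made after the values were seen, for genes with a mean between 20% and 80%. There the 17 leukocyte genes had median differences of 12.9 points within 344SQP, 19.3 within 344SQR and 8.03 between lines, beside 10.2, 12.9 and 7.45 over 5635 genes. The difference between lines exceeded those within a line in 1 of the 17, or 5.88%, and in 25.1% of the 5635 genes. P2 was above P1 in 12 of the 17, or 70.6%, beside 60.9% of the 5635 genes. R2 was above R1 in 11 of the 17, or 64.7%, beside 49.7%.

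Levels differed along the window. Upstream of the TSS 11 leukocyte genes had sites, and their mean level was 33.5% in P1, 46.5% in P2, 34.3% in R1 and 46.1% in R2. From the TSS to 500 bp downstream, 14 genes averaged 41.1%, 54.3%, 36.7% and 48.1%, and from beyond 500 to 2000 bp downstream 14 genes averaged 50.8%, 61.7%, 50.9% and 52.9%. Over all genes the same parts averaged 21.0%, 22.5%, 19.9% and 19.8% upstream, 18%, 19.8%, 17.2% and 17.7% next to the TSS, and 33.1%, 34.7%, 31.3% and 30.5% downstream. The leukocyte genes were thus higher than all genes in all 3 parts of the window and in each tumor.

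The 3 leukocyte genes with the densest windows, at 100 CpGs or more, were Ikzf1, Gata3 and Tbx21. These windows averaged 24.7% in P1, 38.9% in P2, 24.7% in R1 and 38.3% in R2, beside 7.68%, 10.1%, 7.67% and 9.92% over 9259 windows of that density. The 17 leukocyte genes with 40 to 99 CpGs were also above their class, at 47.4%, 56.8%, 46.6% and 45.9% beside 33.5%, 34.8%, 31.9% and 30.7% over all such windows. In windows of under 40 CpGs the order was the reverse, with 39.8%, 46.1%, 30.7% and 51.5% over 4 leukocyte genes beside 74.3%, 72.7%, 67.9% and 59.3% over all such windows. Leukocyte genes were therefore above the average of their class from 40 CpGs up and, on 4 genes, below it under 40. Of the 381 single sites, 53.3%, 64.3%, 46.7% and 50.7% lay between 20% and 80% methylation, beside 12.5%, 14.3%, 12.8% and 11.9% of the 670436 sites in all windows. These shares mostly describe the 5 genes with 289 of the sites, Ikzf1 alone having 127, and not each of the 24.

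Lists of genes of other cells were read the same way. The lists of other blood genes had high and variable medians: 47.1% in P1, 64.1% in P2, 39.2% in R1 and 45.9% in R2 for 12 other genes of T and natural killer cells, and 57.1%, 59.98%, 45.8% and 39.0% for 19 other myeloid genes. Other genes of B cells, 9 with sites, stood at 58.0%, 83.9%, 68.8% and 45.2%, and 18 other pan-leukocyte genes at 25.3%, 43.5%, 27.7% and 36.4%. P2 had the highest median in each of these lists, and also over the 24 leukocyte genes, over all genes and in the epithelial, endothelial and fibroblast lists. Of the genes with sites, 5 were called lower and 4 higher among T and natural killer genes, 7 and 0 among B-cell genes, 13 and 2 among myeloid genes and 4 and 4 among pan-leukocyte genes, where 34.1% of all genes were called lower and 8.84% higher. These counts moved with single tumors: for the pan-leukocyte genes they were 12 lower and 0 higher without P1, 0 and 11 without P2, 3 and 8 without R1 and 9 and 1 without R2, and for the T and natural killer genes 9 and 2 without P1, 2 and 6 without P2, 3 and 5 without R1 and 7 and 1 without R2. B-cell genes were at 4 lower without R2, and myeloid genes at 9 to 11 lower without any 1 tumor. Of all genes, 33%, 26.1%, 35.2% and 31.7% were called lower without P1, P2, R1 and R2, and 7.37%, 12.9%, 11.6% and 4.05% higher.

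Genes of the blood lists are named by their number of sites, a choice that favours CpG-dense windows, and all of them but Prkcb were below the median of their list in each tumor. By their mean over the 4 tumors, they were Eomes, Tcf7 and Bcl11b, factors of T and natural killer cells, at 22.6%, 12.5% and 12.4%; Ebf1, a factor that commits cells to the B lineage, and the B-cell surface receptor Tnfrsf13c, at 23.1% and 37.6%. The myeloid list gave the dendritic cell factor Zbtb46 at 4.00%, the cytokine receptor chain Csf2ra at 23.2% and the kinase Syk at 7.65%. The pan-leukocyte list gave the kinase Prkcb at 43.9%, the phospholipase Plcg2 at 7.98% and the ETS factor Fli1 at 11.8%. Prkcb had the pattern of Ikzf1, with 33.8% and 50.2% in P1 and P2, and 33.8% and 57.9% in R1 and R2.

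Endothelial genes also varied within the lines. Their medians over 18 genes were 26.1% in P1, 42.7% in P2, 32.2% in R1 and 42.5% in R2, with 7 called lower and 5 higher, and P2 was above P1 in 18 of 18 and R2 above R1 in 15 of 18. Of all genes, 34.1% were called lower and 8.84% higher, which is also the background for the epithelial and fibroblast counts below. P2 was above P1 in 56.0% of all genes and R2 above R1 in 50.3%. The median absolute difference within a line was 9.26 points in 344SQP and 6.63 in 344SQR. The calls were 13 lower and 1 higher without P1, 2 and 11 without P2, 5 and 9 without R1 and 11 and 0 without R2. Named by their number of sites, the adaptor She averaged 36.9%, the vascular growth factor receptor Flt1 4.58% and the tight junction protein Cldn5 35.2%. Epithelial genes, which the tumor cells would use, had medians below those of the blood lists and above those of all genes. Their medians over 24 genes were 8.06%, 10.2%, 7.84% and 7.28%, beside 6.72%, 7.84%, 5.63% and 5.61% over all genes, with 14 called lower and 1 higher (9 lower without P2, 2 or 3 higher without any 1 tumor), where the share of all genes called lower was 34.1%. The factors Grhl1, Ovol1 and Grhl2 averaged 1.62%, 14.6% and 25.0%. Fibroblast and mural genes, 15 with sites, had medians of 18.9%, 24.4%, 17.96% and 14.4%, with 5 called lower and 2 higher (2 lower without P2, 1 higher without P1), and Mcam, Col5a1 and Fbln1 averaged 3.78%, 1.44% and 6.81%. The part of other host cells in the levels of the leukocyte genes was not tested.

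**Figure D3:**
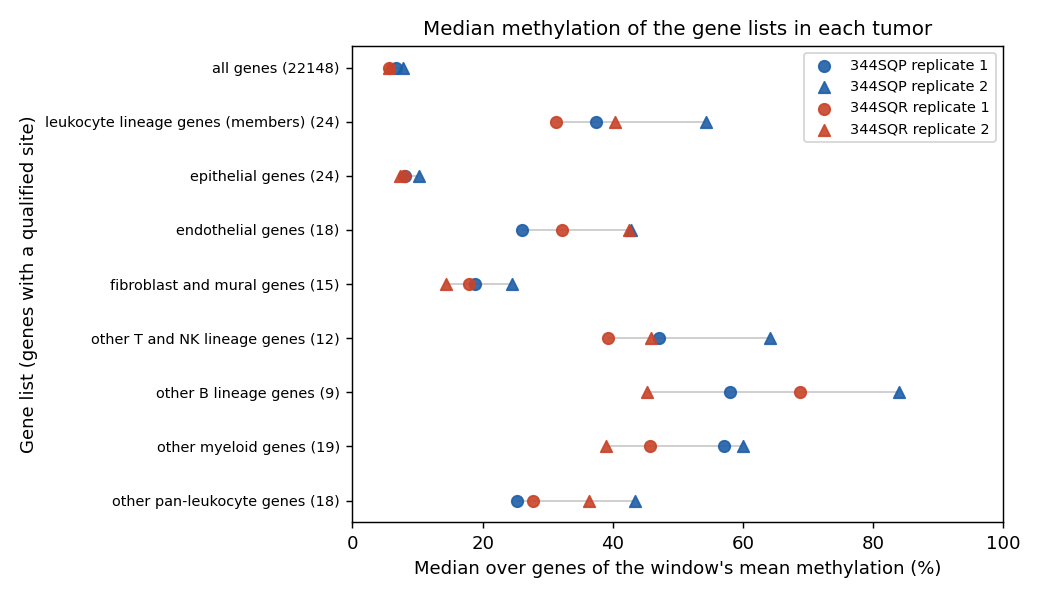
Median over genes of the window's mean methylation (%) in each tumor, for all genes, the 24 leukocyte lineage genes and 7 lists of other genes, with the number of genes with a site in parentheses; circles are replicate 1 and triangles replicate 2, blue is 344SQP and red 344SQR. The epithelial medians lie between 7.28% and 10.2%, while those of the leukocyte lineage genes run from 31.2% in R1 to 54.3% in P2.

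The share of reads on the X chromosome also differed within the lines. The X chromosome took 1.59% of CpG calls in P1, 1.28% in P2, 1.51% in R1 and 1.18% in R2, and its 22535 qualified sites averaged 48.5%, 44.7%, 45.2% and 37.9%. The Y chromosome took 0.0406% of CpG calls in P1, 0.0254% in P2, 0.0555% in R1 and 0.0178% in R2. In each line the tumor numbered 2 had the smaller X and Y shares and the lower X methylation. That tumor was the more methylated in both lines for 13 of the 24 leukocyte genes and the less methylated in both for 3, Cd8a, Cd3e and Was, while the other 8 differed between the lines. Of all genes, it was the more methylated for 56.0% in 344SQP and 50.3% in 344SQR. The share of all genes alike in both lines is not given here. Over all genes too, same-numbered tumors deviated together, so the 13 are not a trait of leukocyte genes alone. What part the X and Y shares have in the result was not tested.

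Short motifs of blood factors were searched on both strands of RefSeq promoter sequences of equal length, most of it ahead of the start. Of the 46 leukocyte genes, 34 matched a RefSeq promoter by symbol, with 46 promoters among them. TGTGGT, the core letters bound by RUNX factors, was found in 11 of these 46 promoters (23.9%) and in 16.8% of all 32851. GAGGAA, the core letters bound by PU.1, was found in 21 of the 46 (45.7%) and in 28.3% of all. The stretch of Dock2 printed above holds GAGGAA 2 times and that of Zap70 1 time, and those of Ikzf1, Coro1a and Lcp1 hold neither motif. A match in letters is a description and does not show binding.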

How the data were processed

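DNA methylation was measured by RRBS in 4 anti-PD1-treated tumors, 2 of 344SQP and 2 of 344SQR, grouped by their titles. Per the submitters' processing notes and the study's methods, reads were trimmed with Trim Galore 0.4.1 and cutadapt 1.9.1 and aligned to mm10 with Bismark and Bowtie 1.1.2. The authors deposited, for each CpG on each strand, its coverage, a read count, with the methylated and unmethylated percent. Methylated counts were recovered from the deposited coverage and percent (100% whole up to 1000 reads). CpG calls per tumor ran from 116794455 to 174689402; at 20 reads a single read is worth 5.0 points. Reads may include PCR copies, so precision covers counting error only.

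Gene windows came from GENCODE vM21 basic annotation. CpGs read 20 times or more in each tumor were tested by likelihood ratio as in methylKit (smallest p 2.2e-16), combined by Stouffer's z and adjusted by Benjamini-Hochberg at FDR 0.05. This test does not use the spread between tumors; edgeR 4.0.16 (R 4.3.3) quasi-likelihood was the alternative that does. Python 3.11.15, numpy 2.4.6, scipy 1.17.1 and pandas 2.3.3 were used, and the code was tested on simulated data. Genes with at least 5 sites were given per tumor; those at the extremes of level, line difference or range within a line were described in full; 3 genes per comparison list were named by number of sites, 1 of which is not reported here. Other coverage minimums, windows, tests and samples left out were tried. The members and lists were chosen with earlier results of these data known.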

Additional observations from a re-analysis of the deposited data

How the results depend on the processing

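Depth and the number of tumors limit these results: 11 of the 24 genes rest on 1 to 4 sites, and the reads test measures the difference between these 4 tumors, not between the lines in general. The labels do not say whether the tumors differ in batch. Over the leukocyte genes and the genes named from the comparison lists, 519 differences were recomputed under the alternatives: 420 kept their direction and their side of the threshold, 22 were no longer called, 27 were newly called and 50 turned direction. Pooling the reads of a window left the test statistic and so the calls unchanged, and only a direction could turn there. Requiring at least 5 sites redid the adjustment alone, so no direction could turn there. The 420 therefore include values that could not have moved in 1 of these ways. The causes were not tested.

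With edgeR's quasi-likelihood test, 2 genes were called lower and 0 higher in 344SQR, and of the leukocyte genes 0 in either direction; 2083 genes, none of them a leukocyte gene, had an unadjusted p under 0.05. The replicate numbers come from the titles and nothing says that they pair the tumors. Same-numbered tumors deviated together, with a correlation of 0.653 over 22148 genes and 0.423 over the 24. With a replicate block, edgeR called 2617 genes lower and 560 higher, and of the leukocyte genes 1 lower (Fgr) and 0 higher; a Mantel-Haenszel test with the block called 11 lower and 4 higher of the 24, and 7467 and 1899 of all.

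At a coverage minimum of 50 reads, the leukocyte genes averaged 40.9% in 344SQP and 35.5% in 344SQR, 0 had both 344SQR tumors above both of 344SQP (6.93% of all genes), and the differences between lines (344SQR minus 344SQP, in points) were 3.02 for Zap70, 3.16 for Tbx21 and 0.193 for Plcg2; at 10 reads Zap70 was at 0.639. With windows ending 500 bp downstream, the mean in 344SQR was 39.2%, the lines did not overlap in 4 of 17 genes lower and 0 higher in 344SQR (32.1% and 7.91% of all genes), and the differences were 3.87 for Tbx21, 4.12 for Grhl2, -5.90 for Eomes, 6.76 for Ebf1, 0.534 for Tnfrsf13c and -3.34 for Csf2ra. With the windows of all TSS joined, the mean in 344SQR was 38.9%, 1 of 25 leukocyte genes was called higher (8.71% of all genes), 0 stood wholly higher (6.68%), and Dock2 was at -6.91, Lcp1 at -1.20 and Runx3 at -5.64. With the reads of a window pooled, Tbx21 was at 1.79 and Plcg2 at 0.295. Among genes with at least 5 sites, the means were 41.1% in 344SQP and 39.2% in 344SQR, 5 of 13 leukocyte genes were called lower (30.1% of all genes), and the lines did not overlap in 2 lower and 0 higher (32.6% and 6.90%).

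Leaving out each tumor in turn, the leukocyte genes called higher ran from 0 to 9, those wholly lower in 344SQR from 9 to 15 and those wholly higher from 1 to 8; of all genes, 50.6% to 53.9% were then wholly lower and 13.9% to 23.9% wholly higher, since a line of 1 tumor overlaps less often. Genes called higher of all genes ran from 900 to 2865, and the difference of the leukocyte means from -10.0 to 0.246 points. The differences of single leukocyte genes ran from -11.3 to 9.29 for Ikzf1, -4.52 to 20.3 for Ikzf3, -8.22 to 11.05 for Gata3, -27.9 to 5.37 for Spi1, -6.26 to 3.53 for Tbx21, -3.54 to 2.57 for Runx1, -22.5 to 6.43 for Cd8a, -5.03 to 5.09 for Zap70, -13.3 to 0.657 for Cd79b, -3.53 to 24.0 for Itgal, -3.70 to 6.82 for Coro1a, -0.411 to 0.493 for Lcp1, -7.31 to 18.9 for Dock2 and -1.55 to 4.82 for Ptpn6. In the comparison lists they ran from -0.304 to 0.0235 for Grhl1, -2.52 to 0.203 for Ovol1, -5.84 to 2.25 for Grhl2, -1.48 to 12.0 for She, -0.0774 to 2.59 for Flt1, -3.37 to 1.04 for Fbln1, -8.26 to 15.9 for Prkcb, -1.24 to 1.16 for Plcg2 and -0.989 to 8.04 for Fli1.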
